A study of Homo sapiens with 6 samples.

Results

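LINC long noncoding RNAs are described here in the gastric cancer line MKN45 and in a pair of its drug-resistant derivatives. They were taken as the rows of the deposited count table whose symbol is LINC followed by digits and that reached a CPM of 1 (the count over the library total, scaled to parts per 1e6) in at least 2 of 6 libraries. Such a name was carried by 532 of 29744 symbols, and 84 of these passed the level rule. The other 448 rows did not, and 297 LINC rows had 0 counts in all libraries. All 84 members were among the 14958 symbols tested. HER2R is the line labelled MKN45-HER2, resistant to a HER2-TCB, CEAR is MKN45-CEAR, resistant to a CEACAM5-TCB, and MKN45 is the sensitive line. A TCB is a T cell bispecific antibody, which ties an antigen on the tumour cell to CD3 on T cells. RNA was taken from untreated cultures of tumour cells in 1 medium, with 2 libraries per line. The labels do not say whether a derivative is 1 clone, how long it was selected or whether the libraries of a line are separate cultures, so the p-values measure the spread between these libraries, which may be technical.

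LINC symbols are given to long intergenic RNAs that lack a name of their own, so the name marks a naming rule and not a shared function. Some such RNAs act as scaffolds or decoys for proteins, some act on genes beside them, and others have since been found to encode small proteins. Many are expressed at low levels and in few cell types, and for most no role is known. The names in the table are of mixed age. By the current RefSeq annotation 54 members were still noncoding under the LINC name, 21 were noncoding under a new name and 9 were annotated as protein-coding. The protein-coding ones included LINC00116, now MTLN, which encodes the mitochondrial microprotein mitoregulin, LINC00493, now SMIM26, and LINC00998, now SMIM30. By GENCODE 29 on GRCh38, 60 members matched by name and 17 by their current RefSeq symbol, 6 had only a RefSeq position and LINC00086 had none. LINC00086 is an older name of the near-identical copies SMIM10L2A and SMIM10L2B. Chromosome 1 carried 11 members, chromosome 7 carried 8 and chromosome 17 carried 7.

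The promoters of the 3 members with the largest called differences and a RefSeq promoter entry are printed because each of these RNAs was nearly off in 1 line or differed many-fold. Each runs 5′ to 3′ on the gene's strand from 250 bases before to 50 bases after the RefSeq start (GRCh38.p14). Capitals mark CG dinucleotides, the sites at which human DNA is methylated.
LINC01018 (chr5:6583026-6583325, plus strand): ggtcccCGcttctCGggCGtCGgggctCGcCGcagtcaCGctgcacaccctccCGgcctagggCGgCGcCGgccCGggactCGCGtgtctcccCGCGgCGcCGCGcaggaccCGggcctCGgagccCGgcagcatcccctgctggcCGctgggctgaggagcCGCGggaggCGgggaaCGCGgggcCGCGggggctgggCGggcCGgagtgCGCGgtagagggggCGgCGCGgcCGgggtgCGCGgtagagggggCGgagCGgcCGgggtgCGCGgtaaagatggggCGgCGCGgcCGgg
LINC00665 (chr19:36331704-36332003, minus strand): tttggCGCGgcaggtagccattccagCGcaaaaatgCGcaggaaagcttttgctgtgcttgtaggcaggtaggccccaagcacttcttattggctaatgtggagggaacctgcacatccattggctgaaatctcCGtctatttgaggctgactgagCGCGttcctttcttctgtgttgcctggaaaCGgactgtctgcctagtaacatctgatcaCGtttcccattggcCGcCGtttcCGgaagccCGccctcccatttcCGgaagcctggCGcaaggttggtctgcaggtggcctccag
LINC00511 (chr17:72640423-72640722, minus strand): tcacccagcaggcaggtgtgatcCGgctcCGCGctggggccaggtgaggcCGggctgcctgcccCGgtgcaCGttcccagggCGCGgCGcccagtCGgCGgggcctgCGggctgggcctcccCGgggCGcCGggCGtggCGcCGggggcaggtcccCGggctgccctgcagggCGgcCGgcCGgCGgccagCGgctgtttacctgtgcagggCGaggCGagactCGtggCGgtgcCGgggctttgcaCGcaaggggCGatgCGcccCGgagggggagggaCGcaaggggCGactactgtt
The LINC01018 window held 49 CG, more than 98.4% of the 35116 RefSeq promoters of this length, against 35 in LINC00511 (more than 85.9%) and 15 in LINC00665 (more than 51.1%). In GENCODE 29 LINC01018 begins upstream of its printed window, at chr5:6582136, so its CG count holds for the RefSeq start only. The 67 members with an entry had a median of 22 CG, with a range of 0 to 49, against 14 over all promoters. The letters TATAAA, on either strand, occurred in 5 of these 67 and in 11.5% of all promoters, and in none of the 3 printed. GGGCGG, the core of the GC box, occurred in 38 of 67 and in 45.0% of all, and in each of the 3. CCAAT occurred in 26 of 67 and in 34.6% of all, and of the 3 only in LINC00665. The members were chosen by level and the promoters as a whole were not, so these differences cannot be assigned to LINC RNAs as such. These are matches of letters, and no methylation or binding was measured. LINC00483, now ANKRD40CL, is named without a promoter.

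Library totals ran from 39657353 to 57964246 counts, and the members together took 0.111% to 0.122% of them. On the scale used for levels (CPM on totals of the tested genes scaled by TMM), 1 count was 0.0177 to 0.0255 CPM. LINC00167, at 0.809 to 1.32 CPM, held 36 to 63 counts per library, and only levels far below 1 CPM rest on few counts. Epithelial markers were at 1 CPM or more in all libraries except for 1 of 7 in CEAR library 1, and summed to 7803 to 15327 CPM. Summed T, NK and B cell markers reached 0.106 to 0.434 CPM, with CD3D, CD2, NKG7 and MS4A1 at 0 throughout. Of the myeloid markers LYZ was at 361.6 to 1191.8 CPM and CD68 at 2.65 to 15.0 CPM, while PTPRC, CD14 and CSF1R reached at most 0.179 CPM. Of the fibroblast markers COL1A1 was at 0.591 to 7.44 CPM, and the others reached at most 0.341 CPM. Endothelial markers summed to 0.0177 to 0.255 CPM. Libraries of the same number deviated together across lines, so a second fit, the replicate block, which holds the library number fixed, is given where it changes a count or call. Counts of genes within 500 kb are given without it.

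Levels over the members were uneven. LINC00657, now NORAD, which binds Pumilio proteins and guards chromosome stability, had 474.6 and 542.5 CPM in HER2R, 410.4 and 405.9 CPM in CEAR and 486.8 and 469.6 CPM in MKN45. It held 37.3% to 43.3% of all member CPM in a library, and the 10 highest members held 67.4% to 75.4%. LINC01123 was the other member with a mean of 100 CPM or more, at 103.8 and 105.8 CPM in HER2R, 136.2 and 107.1 CPM in CEAR and 153.7 and 111.1 CPM in MKN45. Mean CPM over the 3 lines lay at 10 or more in 17 members, at 2 to 10 in 36 and under 2 in 31, with a median of 3.41 and a range of 0.603 to 464.9 CPM. Neither NORAD nor LINC01123 was called in any comparison, and their log2 fold changes lay between -0.34 and 0.32. Per kilobase of merged exons NORAD was again highest, at 87.1 CPM per kb, followed by LINC00674 at 59.4 and LINC01123 at 36.3. SMIM30 (15.1 CPM per kb), SMIM26 (11.9) and MTLN (10.3) were also among the 8 highest per kilobase. LINC00843 (21.7 CPM per kb) shares sequence with the TIMM23B locus, and LINC01123 lies in a duplicated part of 2q13, so reads of both may be split between copies. The summed CPM of the members without NORAD was 678.2 and 709.9 in HER2R, 684.8 and 683.7 in CEAR and 689.5 and 730.7 in MKN45. HER2R overlapped both other lines, and both CEAR libraries lay just below those of MKN45.

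**Figure D1:**
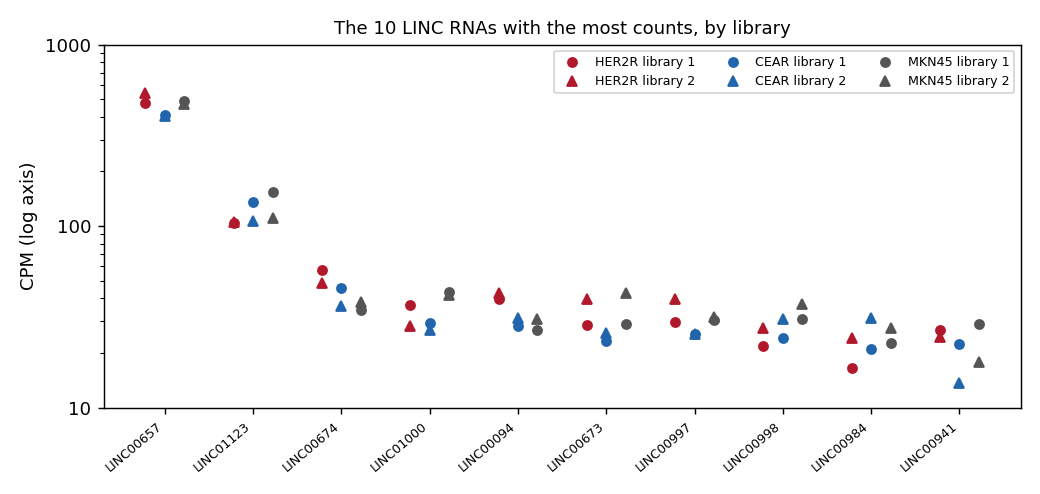
Levels of the 10 LINC RNAs with the highest mean CPM, on a log axis, with 1 mark per library for HER2R (red), CEAR (blue) and MKN45 (grey). LINC00657 (NORAD) sits between 405.9 and 542.5 CPM in the 6 libraries, LINC01123 between 103.8 and 153.7 CPM, and the other 8 reach at most 57.1 CPM.

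In HER2R against MKN45 LINC01018 rose and LINC00483 and LINC00665 fell, and 81 of 84 members did not pass the test. The 3 called members are 3.57% of the list, where 9.74% of all tested genes were called (4.89% higher and 4.85% lower). In CEAR against MKN45 LINC01018 rose and LINC00483, LINC00511 and LINC00665 fell, which is 4.76% of the members, where 6.19% of all tested genes were called (2.57% higher and 3.62% lower). A call is an adjusted p under 0.05 by the quasi-likelihood test of edgeR, the p-values being adjusted after Benjamini and Hochberg across the 14958 genes. With the replicate block 8 members were higher and 12 lower in HER2R, where 33.7% of all genes were called (16.2% higher and 17.5% lower). In CEAR it called 8 higher and 8 lower, where 25.8% of all genes were called (12.0% higher and 13.8% lower). The calls of both fits included the members called without the block. Of the called members LINC00483 met the level rule through its MKN45 libraries alone, which favours a lower value in the derivatives. LINC01018 met it through the derivatives alone, which favours a higher value in them. LINC00665 met it through HER2R and MKN45 alone, which favours a lower value in CEAR. The calls in these directions are therefore a description. The median absolute log2 fold change of the members was 0.33 in HER2R, close to the 0.36 over all tested genes. In CEAR it was 0.42, larger than the 0.30 over all tested genes. A 2-fold difference in either direction was passed by 11 members in HER2R and 13 in CEAR (13.1% and 15.5%), against 13.8% and 13.2% of all genes. Libraries of HER2R and MKN45 did not overlap for 35 members (15 higher and 20 lower, 41.7% in all), against 57.1% of all genes (27.8% higher and 29.3% lower). Libraries of CEAR and MKN45 did not overlap for 37 members (20 higher and 17 lower, 44.0% in all), against 50.6% of all genes (25.6% lower). The comparisons share the MKN45 libraries, so the 3 members called in both are not independent findings.

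**Figure D2:**
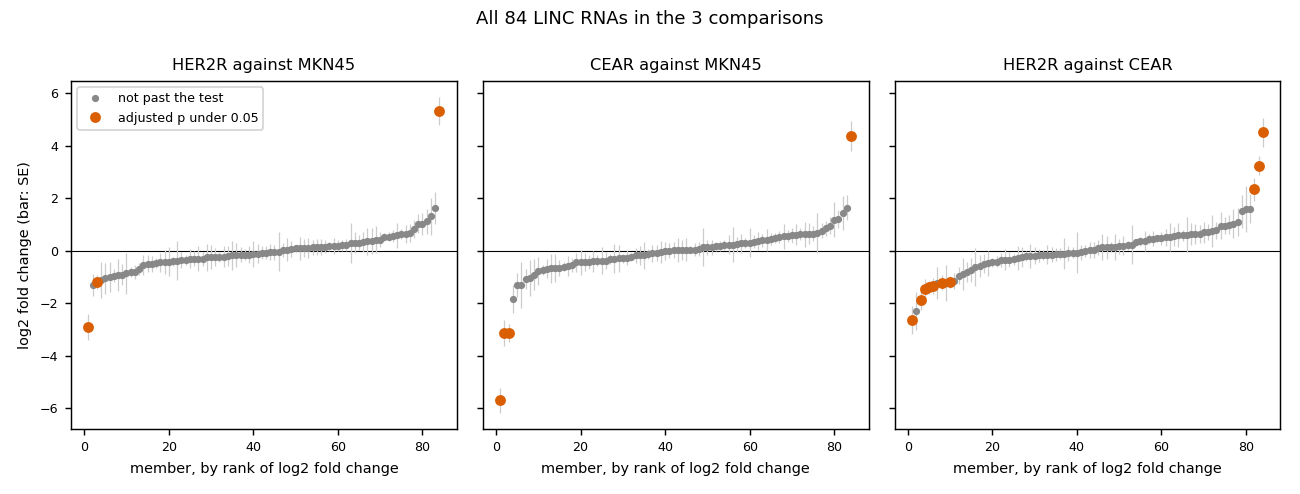
Log2 fold change of each of the 84 LINC RNAs, ordered by size, in the comparisons of each derivative with MKN45 and of the derivatives with each other, with bars of 1 SE. Orange marks are the 3, 4 and 10 members with an edgeR adjusted p under 0.05, and most members lie within 1 log2 unit of 0.

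LINC01018 was the member that rose in both derivatives. It is a lincRNA at chr5:6582136-6588499 on the plus strand (GENCODE 29), known mainly from liver. It had 3.06 and 3.62 CPM in HER2R, 1.30 and 2.11 CPM in CEAR and 0.0709 and 0.0910 CPM in MKN45, where each library held 4 counts. No MKN45 library reached 1 CPM, so the level rule itself favoured this direction. All 4 libraries of the derivatives lay far above both MKN45 libraries, and HER2R lay above CEAR without overlap. It rose by 5.34 on the log2 scale in HER2R (SE 0.528, edgeR adjusted p = 0.00375). In CEAR it rose by 4.38 (SE 0.574, edgeR adjusted p = 0.0110). Its difference of 0.96 between HER2R and CEAR (SE 0.327, edgeR adjusted p = 0.0949) did not pass, and passed with the replicate block (edgeR adjusted p = 0.0223). The call in HER2R held under all 16 alternatives, and that in CEAR was lost without MKN45 replicate 1 or without MKN45 replicate 2 (edgeR adjusted p up to 0.0662), with a log2 fold change of 3.98 to 4.68. In bulk RNA, more cells with the transcript and more transcript per cell cannot be told apart. The nearest coding gene, NSUN2, an RNA cytosine methyltransferase 10740 bp away, was at 256.0 and 213.8 CPM in HER2R, 213.8 and 165.6 CPM in CEAR and 277.8 and 194.9 CPM in MKN45, where each derivative overlapped MKN45. None of the 4 tested genes within 500 kb was called in any of the 3 comparisons without the block, and with it NSUN2 passed in HER2R against CEAR (log2 fold change 0.32, edgeR adjusted p = 0.0493). Without the block 9.74%, 6.19% and 14.1% of all tested genes were called in these comparisons. With only 4 genes the count says little about the region.

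LINC00665 fell in both derivatives and was close to absent in CEAR. It is a lincRNA among the zinc finger genes of 19q13, at chr19:36313067-36331718 on the minus strand, and in breast cancer it has been described to encode a micropeptide. Its level was 1.48 and 1.30 CPM in HER2R, 0.0482 and 0.0674 CPM in CEAR and 2.98 and 3.39 CPM in MKN45. CEAR held only 2 and 3 counts, against 168 and 149 in MKN45, and HER2R lay between the other lines without overlap. No CEAR library reached 1 CPM, so the level rule itself favoured a lower value in CEAR. In CEAR the log2 fold change was -5.70 (SE 0.473, edgeR adjusted p = 0.00241), a 52.1-fold lower fitted level, and -1.19 in HER2R (SE 0.275, edgeR adjusted p = 0.0390). HER2R exceeded CEAR by 4.51 on the log2 scale (SE 0.545, edgeR adjusted p = 0.00649). The call in CEAR held under all 16 alternatives, while that in HER2R was lost under 11, every left-out library among them, with adjusted p up to 0.202. Without CEAR replicate 1 or CEAR replicate 2 the difference between the derivatives no longer passed (edgeR adjusted p up to 0.0600). ZFP14, the zinc finger gene 2735 bp away on the same strand, had 4.53 and 4.97 CPM in HER2R, 4.75 and 6.90 CPM in CEAR and 3.77 and 6.21 CPM in MKN45, with overlap throughout. Of 23 tested genes within 500 kb none was called in CEAR against MKN45 and 1 in HER2R, without the block. Of all tested genes 6.19% and 9.74% were called in these comparisons, so such small counts say little about the region. The called gene, SYNE4, which encodes an outer nuclear membrane protein, rose by 3.77 on the log2 scale in HER2R (SE 0.410, edgeR adjusted p = 0.00587), opposite to LINC00665. Against CEAR, SYNE4 was higher in HER2R by 4.19 (edgeR adjusted p = 0.00649), in the direction of LINC00665 in that comparison, and this call was lost without HER2R replicate 2 (edgeR adjusted p = 0.0578).

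LINC00511 fell in CEAR and not in HER2R. It is a noncoding transcript on the minus strand at chr17:72290091-72640472, between SOX9 and SLC39A11, and is often raised in carcinomas. It had 9.12 and 13.1 CPM in HER2R, 1.13 and 1.19 CPM in CEAR and 8.11 and 12.2 CPM in MKN45. The CEAR libraries stood apart from the other 4, and HER2R and MKN45 overlapped. The log2 fold change was -3.12 in CEAR (SE 0.349, edgeR adjusted p = 0.00815), 8.68-fold lower, and 0.13 in HER2R (SE 0.287, edgeR adjusted p = 0.797). The derivatives differed by 3.25 (SE 0.350, edgeR adjusted p = 0.00651). The call in CEAR held under all 16 alternatives, and the difference between the derivatives missed the threshold without HER2R replicate 2 (edgeR adjusted p = 0.0521). LINC00673, described mainly in pancreatic cancer, has a RefSeq position inside this span, at chr17:72403322-72592804. Its level was 28.5 and 39.9 CPM in HER2R, 23.3 and 25.9 CPM in CEAR and 28.9 and 42.8 CPM in MKN45. It did not share the 8.68-fold difference: its log2 fold change in CEAR was -0.54 (SE 0.248, edgeR adjusted p = 0.257), which passed with the replicate block (edgeR adjusted p = 0.0250), as did its difference of 0.45 between HER2R and CEAR (edgeR adjusted p = 0.0301). How the counting divided reads between these overlapping annotations is not given in the sources used here. SOX9, a transcription factor of epithelial progenitors, had 250.1 and 231.1 CPM in HER2R, 220.8 and 152.6 CPM in CEAR and 222.2 and 223.9 CPM in MKN45, and it was not called (log2 fold change 0.11 in HER2R and -0.26 in CEAR). SLC39A11, a zinc transporter gene, was at log2 fold changes of -0.02 in HER2R and -0.35 in CEAR and was not called. With the block it was called lower in CEAR against MKN45 (edgeR adjusted p = 0.0426) and higher in HER2R against CEAR (edgeR adjusted p = 0.0369), the directions of LINC00511.

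LINC00483, now annotated as the protein-coding gene ANKRD40CL, fell in both derivatives. It lies at chr17:50761029-50767557 on the minus strand. It reached 1 CPM only in MKN45, so the level rule itself favoured this direction and its test supports nothing further. Its level was 0.204 and 0.179 CPM in HER2R, 0.120 and 0.202 CPM in CEAR and 1.28 and 1.64 CPM in MKN45, and the derivatives overlapped with each other only. HER2R was lower by a log2 fold change of -2.90 (SE 0.482, edgeR adjusted p = 0.0197). CEAR was lower by one of -3.13 (SE 0.486, edgeR adjusted p = 0.0192). The derivatives held 5 to 9 counts per library, against 72 and 72 in MKN45. The HER2R call was lost without HER2R replicate 1, HER2R replicate 2 or MKN45 replicate 2 (edgeR adjusted p up to 0.135), and the CEAR call under 6 of 16 alternatives (up to 0.107), among them each left-out library but MKN45 replicate 1. LUC7L3, a splicing factor gene 4816 bp away, differed by 0.08 in HER2R and -0.03 in CEAR on the log2 scale. Of 21 tested genes within 500 kb only EPN3, an endocytic adaptor gene, was called against MKN45 without the block. It fell by 0.84 on the log2 scale in CEAR (edgeR adjusted p = 0.0485), a call lost with any 1 library left out. Of all tested genes 9.74% in HER2R and 6.19% in CEAR were called, so this count says little about the region.

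**Figure D3:**
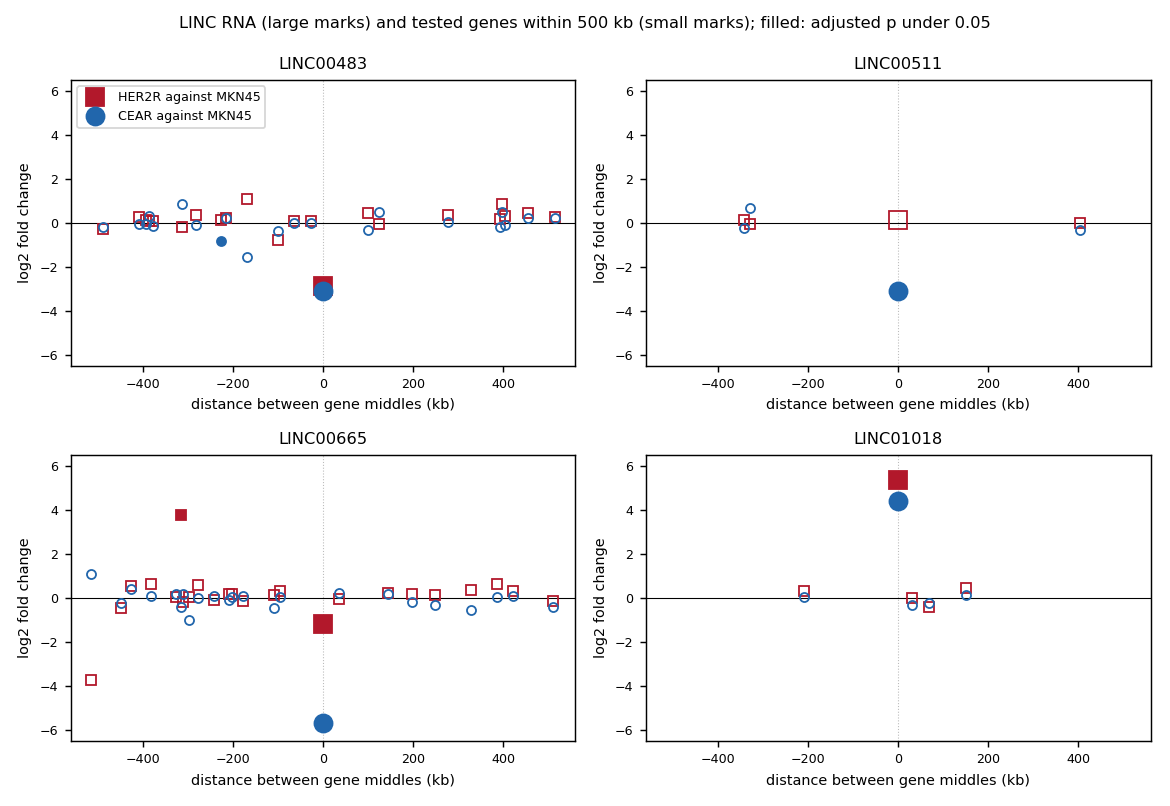
Log2 fold change against MKN45 of LINC00483, LINC00511, LINC00665 and LINC01018 (large marks) and of the tested genes within 500 kb (small marks), by distance between gene middles in kb; squares are HER2R, circles CEAR, and filled marks have an edgeR adjusted p under 0.05. Around the 4 LINC RNAs only SYNE4 in HER2R, at 3.77, and EPN3 in CEAR, at -0.84, are filled.

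Between the derivatives more members were called. In HER2R against CEAR 3 rose (LINC00511, LINC00665 and LINC01138) and 7 fell (LINC00346, LINC00526, LINC00675, LINC00685, LINC00936, LINC00982 and LINC01106). These 10 are 11.9% of the members, where 14.1% of all tested genes were called (7.32% higher and 6.75% lower). With the replicate block 15 were higher and 12 lower, where 38.2% of all genes were called (19.7% higher and 18.6% lower). The libraries did not overlap for 50 members (28 higher and 22 lower, 59.5% in all), against 61.4% of all genes (31.0% higher and 30.3% lower), and 20 members passed a 2-fold difference (23.8%), against 16.4%. The median absolute log2 fold change of the members was 0.48, against 0.39 over all tested genes. For each of the 7 that fell, and for LINC01138, the MKN45 mean lay between those of the derivatives, and none of them passed the test in either derivative against MKN45. With the replicate block LINC00526, LINC00675, LINC00685, LINC01106 and LINC01138 passed in HER2R against MKN45, and LINC00346, LINC00675, LINC00936 and LINC00982 in CEAR against MKN45. LINC00665 and LINC01138 reached 1 CPM in no CEAR library and LINC00936 in no HER2R library. The level rule favoured the directions of these calls between the derivatives, which are a description.

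LINC01138, which binds the arginine methyltransferase PRMT5 in liver cancer cells, lies at chr1:148290889-148519604. It had 2.57 and 2.65 CPM in HER2R, 0.554 and 0.472 CPM in CEAR and 0.921 and 1.68 CPM in MKN45. The HER2R libraries were above all others, and the log2 fold change between the derivatives was 2.35 (SE 0.433, edgeR adjusted p = 0.0232). The region holds duplicated sequence, so its reads may be divided between copies, and NBPF14, a gene of a duplicated family 11781 bp away, was also higher in HER2R (log2 fold change 1.12, edgeR adjusted p = 0.0164).

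LINC00675, now TMEM238L and annotated as protein-coding, had the largest difference of those that fell. Its level was 1.02 and 1.38 CPM in HER2R, 4.36 and 10.6 CPM in CEAR and 1.90 and 2.93 CPM in MKN45, so the CEAR libraries were the highest and also the farthest apart. The log2 fold change was -2.64 (SE 0.532, edgeR adjusted p = 0.0278), with a range of -3.15 to -1.87 over the alternatives. LINC00346, now PRECSIT, was named for its regulation by p53 and its activation of STAT3 in squamous carcinoma. It had 1.07 and 0.689 CPM in HER2R, 3.25 and 3.21 CPM in CEAR and 1.35 and 2.0 CPM in MKN45, and the lines did not overlap. It differed by -1.87 between the derivatives (SE 0.375, edgeR adjusted p = 0.0274). PURPL, a p53-induced RNA listed as LINC01021, was at 4.87 and 2.96 CPM in HER2R, 2.51 and 2.52 CPM in CEAR and 3.93 and 6.75 CPM in MKN45, and was not called.

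LINC00936 and LINC00982 each lie beside a coding gene from which they took their current names. LINC00936, now ATP2B1-AS1, had 0.764 and 0.714 CPM in HER2R, 1.88 and 2.16 CPM in CEAR and 0.709 and 1.05 CPM in MKN45. HER2R lay within the MKN45 range, and only CEAR stood apart. The log2 fold change between the derivatives was -1.45 (SE 0.370, edgeR adjusted p = 0.0487), which 12 of 16 alternatives lost. ATP2B1, the plasma membrane calcium pump gene it overlaps on the opposite strand, had 68.2 and 37.9 CPM in HER2R, 119.3 and 97.9 CPM in CEAR and 62.2 and 38.9 CPM in MKN45, and missed the threshold at -1.03 (edgeR adjusted p = 0.0861), which it passed with the block (edgeR adjusted p = 0.00088). In CEAR against MKN45 ATP2B1 and LINC00936 were both called higher only with the block. Their log2 fold changes with it were 1.14 (edgeR adjusted p = 0.000907) and 1.22 (edgeR adjusted p = 0.0241). LINC00982, now PRDM16-DT, starts 731 bp from PRDM16 on the opposite strand. It had 1.38 and 1.33 CPM in HER2R, 3.06 and 3.84 CPM in CEAR and 1.84 and 1.96 CPM in MKN45, with a log2 fold change of -1.35 between the derivatives (SE 0.298, edgeR adjusted p = 0.0331). PRDM16, a transcription factor gene, had 31.0 and 23.3 CPM in HER2R, 18.8 and 16.9 CPM in CEAR and 10.2 and 11 CPM in MKN45. Its order across the lines was thus another one than that of LINC00982. In CEAR against MKN45 both were called higher only with the block. PRDM16 was at 0.76 there (edgeR adjusted p = 0.0108) and LINC00982 at 0.86 (edgeR adjusted p = 0.0399). Between the derivatives PRDM16 was at 0.60 and passed only with the block (edgeR adjusted p = 0.0179), opposite to LINC00982. In HER2R against MKN45 PRDM16 rose by 1.36 on the log2 scale (SE 0.198, edgeR adjusted p = 0.0134), where LINC00982 was at -0.49 (edgeR adjusted p = 0.352). The PRDM16 call was lost without HER2R replicate 1, MKN45 replicate 1 or MKN45 replicate 2 (edgeR adjusted p up to 0.0882).

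LINC00685 lies in the pseudoautosomal region, 2171 bp from the start of GTPBP6 on the opposite strand. It had 2.19 and 2.09 CPM in HER2R, 5.52 and 5.75 CPM in CEAR and 4.32 and 3.87 CPM in MKN45. The log2 fold change between the derivatives was -1.39 (SE 0.248, edgeR adjusted p = 0.0209). GTPBP6, which encodes a GTP-binding protein, had 43.9 and 37.8 CPM in HER2R, 69.4 and 65.2 CPM in CEAR and 71.5 and 56.0 CPM in MKN45, and it fell as well (log2 fold change -0.72, SE 0.166, edgeR adjusted p = 0.0371). In HER2R against MKN45 GTPBP6 was at -0.64 and LINC00685 at -0.94. Both passed there only with the block (edgeR adjusted p = 0.0034 and 0.0185). LINC00526 overlaps LINC00667 on the opposite strand on chromosome 18. LINC00526 had 1.94 and 1.63 CPM in HER2R, 4.31 and 3.93 CPM in CEAR and 3.33 and 2.91 CPM in MKN45, and differed by -1.21 between the derivatives (SE 0.276, edgeR adjusted p = 0.0364). LINC00667 had 16 and 21.7 CPM in HER2R, 15.7 and 24.7 CPM in CEAR and 14.3 and 19.9 CPM in MKN45, with overlap in every pair of lines. LINC01106, chosen for naming after its values were seen, had 11 and 9.97 CPM in HER2R, 19.8 and 28.4 CPM in CEAR and 15.0 and 18.7 CPM in MKN45 (log2 fold change between the derivatives -1.20, SE 0.235, edgeR adjusted p = 0.0265). Like LINC01123 it lies in the duplicated part of 2q13. The calls of LINC00346, LINC00675, LINC00685, LINC00982, LINC01106 and LINC01138 were each lost without either HER2R library and without CEAR replicate 2. All of these but LINC00675 and LINC01106 were also lost without CEAR replicate 1, and LINC00526 lost its call without any 1 of the 6 libraries. The GTPBP6 and NBPF14 calls between the derivatives were lost without any HER2R or CEAR library (edgeR adjusted p up to 0.197 and 0.101).

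**Figure D4:**
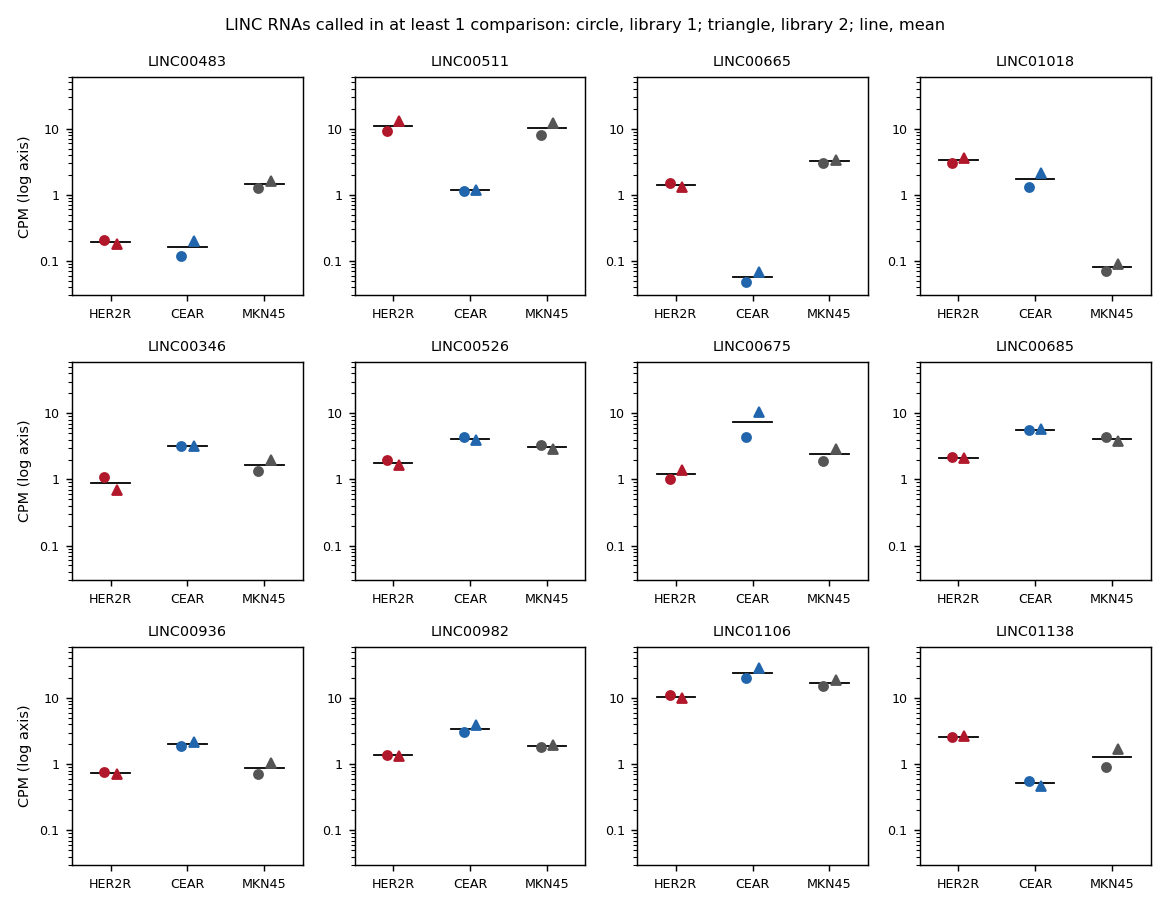
Levels of the 12 LINC RNAs called in at least 1 comparison, in CPM on a log axis, with circles for library 1, triangles for library 2 and a line at the mean of the 2 libraries of a line. LINC01018 is low only in MKN45, LINC00483 is high only in MKN45, LINC00511 and LINC00665 are lowest in CEAR, and LINC00346, LINC00526, LINC00675, LINC00685, LINC00936, LINC00982 and LINC01106 are highest in CEAR.

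Of 30 LINC RNAs listed for a described role 17 were members. None rose and 1 fell in HER2R against MKN45 (LINC00665), none rose and 2 fell in CEAR (LINC00511 and LINC00665), and those 2 rose in HER2R against CEAR. Of all tested genes 9.74%, 6.19% and 14.1% were called in these comparisons, so counts this small say little about the list. The median log2 fold change of the 17 was -0.05, -0.17 and 0.15 in these comparisons, against -0.07, 0.03 and 0.01 over all members. CYTOR, listed as LINC00152 and often raised in gastric cancer, had 10.3 and 11.2 CPM in HER2R, 8.87 and 12.7 CPM in CEAR and 7.58 and 6.94 CPM in MKN45. Both derivatives lay above MKN45 at a log2 fold change of 0.57 each, which did not pass (edgeR adjusted p = 0.178 and 0.213). LINC00261, an RNA of the endoderm next to FOXA2, had 2.5 and 0.765 CPM in HER2R, 5.11 and 2.56 CPM in CEAR and 3.86 and 2.23 CPM in MKN45. Its libraries of number 1 were above those of number 2 in each line, and with the replicate block it was called lower in HER2R against MKN45 and against CEAR. LINC00472, described to be low in breast tumours of high grade, had 5.83 and 3.01 CPM in HER2R, 3.59 and 2.16 CPM in CEAR and 2.30 and 1.98 CPM in MKN45, and was called only with the block, higher in HER2R than in MKN45. The role-listed members now annotated as protein-coding, MTLN, SMIM26 and SMIM30, did not pass in any comparison without the block. Their log2 fold changes in HER2R and CEAR against MKN45 were -0.05 and -0.08 for MTLN, -0.23 and 0.22 for SMIM26 and -0.47 and -0.31 for SMIM30. The other role-listed members (LINC00342, LINC00467, LINC00662, LINC00847, LINC00941 and LINC00963) were not called without the block, with log2 fold changes between -0.68 and 1.00 over the 3 comparisons. With the block LINC00467 (edgeR adjusted p = 0.0457) and LINC00941 (edgeR adjusted p = 0.0323) were called higher in HER2R than in CEAR, and SMIM30 lower in HER2R than in MKN45 (edgeR adjusted p = 0.0152).

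Neighbouring coding genes were compared over the list as a description. Only the nearest coding gene of a member was taken. It lay within 100 kb for 72 members and was tested for 53 of them. Of called members with a tested nearest gene, 0 of 3 in HER2R and 0 of 4 in CEAR had it called in the same direction. In HER2R against CEAR 1 of 6 had, LINC00685 with GTPBP6. Genes beyond the nearest were not counted. LINC01138 and LINC00675 had an untested nearest gene. NBPF14 near LINC01138 and SCO1, 96538 bp from LINC00675, were called in the member's direction in HER2R against CEAR. Their log2 fold changes were 1.12 (edgeR adjusted p = 0.0164) and -0.79 (edgeR adjusted p = 0.0177). ADPRM near LINC00675 and ZBTB14 near LINC00526 were not called. Of all tested genes 4.89% were called higher and 4.85% lower in HER2R, 2.57% and 3.62% in CEAR and 7.32% and 6.75% between the derivatives. With so few members these counts cannot be told from those shares. With the replicate block these counts were 4, 4 and 5. It called 20, 16 and 27 members, not all with a tested neighbour, and 33.7%, 25.8% and 38.2% of all genes in either direction. Over the 53 pairs, which share libraries and can share reads, the log2 fold changes of member and neighbour had a Spearman correlation of 0.28, 0.276 and 0.167. For 14 members the neighbour overlapped on the opposite strand and for 10 on the same strand, and the strand setting of the counting is not given in the sources used here.

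Libraries of a line differed in these RNAs by amounts that bear on the tests. The median absolute log2 ratio of library 2 to library 1 over the 84 members was 0.31 in HER2R, 0.38 in CEAR and 0.41 in MKN45. In all 3 lines 25 members were higher in library 2 and 19 lower, and 40 went both ways. The widest ratio was that of LINC00858, with 0.602 CPM in MKN45 library 1 and 3.37 CPM in MKN45 library 2. LINC00886 had 1.30 and 0.816 CPM in HER2R, 8.46 and 2.02 CPM in CEAR and 1.72 and 2.14 CPM in MKN45, and its difference of -2.30 in HER2R against CEAR had an SE of 0.721 (edgeR adjusted p = 0.0817, and 0.0134 with the replicate block). Just inside the level rule, the second-highest CPM over the library total was 1.09 in LINC00167, 1.14 in LINC01137, 1.19 in LINC00638, 1.24 in LINC00483 and 1.34 in LINC00482. Just outside it was 0.995 in LINC00910, 0.994 in LINC00672, 0.969 in LINC01126, 0.933 in LINC00235 and 0.919 in LINC01144.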

How the data were processed

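RNA from MKN45, HER2R and CEAR cells was sequenced, 2 libraries per line, as stranded total RNA depleted of ribosomal RNA, per the labels' protocols. GRCh38 and limma are named in the submitters' processing notes. Which aligner, annotation and strand setting were used is not given in the sources used here. Raw counts per gene symbol, whole numbers in all 6 libraries, were deposited by the authors, with totals of 39657353 to 57964246, and 0 columns were unmatched. Members and lists were chosen with earlier results of these data known.

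The counts were analysed in R 4.3.3 with edgeR 4.0.16: filterByExpr by line kept 14958 symbols, TMM scaled the libraries, and a single quasi-likelihood fit of line means (3 residual and 3.51 prior degrees of freedom) gave 3 contrasts. The SE was obtained by dividing the absolute log2 fold change by the square root of F. Libraries of a line were not copies (chi-square per degree of freedom 60.7 in HER2R, 90 in CEAR and 128 in MKN45). Differences of number 2 minus number 1 correlated between lines over all genes, at 0.378 (HER2R and MKN45), 0.545 (CEAR and MKN45) and 0.355 (HER2R and CEAR), a hint from the data and not from the labels, so the fit with a replicate block was run beside the main one.

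Named members were up to 10 called per direction against MKN45 and up to 6 between the derivatives, by size of change without overlap of libraries. The rest of the rule named the 10 most abundant, those called in both derivatives, those with a described role, up to 5 on each side of the 1 CPM limit, and called neighbours. Others were named after their values were seen. Positions are GENCODE 29, and promoters and current symbols RefSeq GRCh38.p14. Alternatives were the block, RLE factors, library size alone, no filter, a 1 CPM filter, DESeq2 1.42.0, limma-voom 3.58.1, a fold-1.5 test, the compared lines alone, each library left out, other level limits for members and, chosen after seeing the data, edgeR's legacy method. The test was tried on simulated data first.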

Additional observations from a re-analysis of the deposited data

Results flagged for a closer look

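The effects of the derivatives differed for a pair of members. LINC00511 differed by 3.25 on the log2 scale between its effect in HER2R (0.13) and its effect in CEAR (-3.12), tested as HER2R against CEAR (SE 0.350, edgeR adjusted p = 0.00651). LINC00665 fell in both derivatives, with log2 fold changes of -1.19 in HER2R and -5.70 in CEAR, and the effects differed by 4.51 (SE 0.545, edgeR adjusted p = 0.00649). LINC00665 reached 1 CPM in no CEAR library, so the level rule favoured a lower value in CEAR and this is a description. Its call in HER2R was lost under 11 of 16 alternatives, and that between the derivatives without either CEAR library. For LINC00511 the call between the derivatives was lost without HER2R replicate 2. Both HER2R libraries lay above both CEAR libraries for each RNA. Since MKN45 cancels in this difference, each value is the HER2R against CEAR contrast itself.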

How the results depend on the processing

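Of 17 calls of single members, those of LINC01018 in HER2R and of LINC00511 and LINC00665 in CEAR kept their direction and their side of the threshold under all 16 alternatives. The level rule favoured the directions of the LINC01018 and LINC00665 calls, which are a description. Under these alternatives no result reversed its direction, RLE factors and library size alone lost no call of a member, and the median of all genes moved by at most 0.07 on the log2 scale. The cause of the changes below was not tested, except that leaving out a library also takes away degrees of freedom. The share of all genes called is given only for the main fit and the replicate block. Counts under the other settings therefore cannot be told from a change in calls over all genes.

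The replicate block moved most counts. It called 33.7% of all genes in HER2R against MKN45, 25.8% in CEAR against MKN45 and 38.2% in HER2R against CEAR. With it, members called higher were 8 in HER2R against MKN45, 8 in CEAR against MKN45 and 15 in HER2R against CEAR, and members called lower were 12, 8 and 12. Role-listed members called became 4 in HER2R and 6 between the derivatives. Called members with a neighbour called in the same direction became 4, 4 and 5, and other long noncoding RNAs called became 16, 5 and 12. The block lost no call of a member.

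In HER2R against MKN45, members called lower became 1 with no filter, with a test against a fold of 1.5, with the legacy method, with the compared lines alone, with limma-voom and with members at 2 CPM, 4 with DESeq2, and 0 with members at 1 CPM in all 6 libraries; those called higher became 3 with DESeq2 and 0 with members at 1 CPM in all 6 libraries. Role-listed members called became 0 with no filter, the fold test, the legacy method, the compared lines alone and limma-voom. DESeq2 gave 2 called members with a neighbour of the same direction. Other long noncoding RNAs called became 1 with no filter, the legacy method or the compared lines alone, 0 with the fold test and 6 with DESeq2.

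In CEAR against MKN45, members called higher became 2 with DESeq2, 2 with members at 0.5 CPM and 0 with members at 1 CPM in all 6 libraries, and those called lower became 6 with DESeq2 and 1 with members at 1 CPM in all 6 libraries. Other long noncoding RNAs called became 0 with the fold test or the compared lines alone and 1 with limma-voom.

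In HER2R against CEAR, members called higher became 1 with members at 1 CPM in all 6 libraries, and those called lower became 0 with the fold test. Called members with a neighbour of the same direction became 0 with no filter or the fold test and 2 with DESeq2. Other long noncoding RNAs called became 1 with no filter, 0 with the fold test and 6 with DESeq2.

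With each library left out in turn, members called higher ranged from 1 to 1 in HER2R, 0 to 1 in CEAR and 1 to 3 between the derivatives, and those called lower from 0 to 1, 2 to 3 and 0 to 5. Role-listed members called ranged from 0 to 0, 2 to 2 and 1 to 2, called members with a neighbour of the same direction from 0 to 0, 0 to 0 and 0 to 1, and other long noncoding RNAs called from 0 to 1, 0 to 1 and 0 to 4. Depth limits the members under 2 CPM most, where a line near 0 holds single counts.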

Other observations

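LINC RNAs are a part of the long noncoding RNAs, and 41 others of a list of 52 with names of their own were tested. Of these 2 rose and 0 fell in HER2R against MKN45, and 1 rose and 1 fell in CEAR against MKN45. In HER2R against CEAR 3 rose and 0 fell. Of all tested genes 9.74%, 6.19% and 14.1% were called in these comparisons, so counts this small say little about the list. MIR210HG, the host gene of the hypoxia-induced miR-210, rose in both derivatives, which share the MKN45 libraries: it had 2.52 and 2.86 CPM in HER2R, 2.31 and 3.08 CPM in CEAR and 0.850 and 0.682 CPM in MKN45 (log2 fold change 1.79, edgeR adjusted p = 0.0271, and 1.80, edgeR adjusted p = 0.0330). UCA1, named for urothelial carcinoma, rose in HER2R, at 0.662 and 0.663 CPM in HER2R, 0.0482 and 0.0899 CPM in CEAR and 0.159 and 0.0910 CPM in MKN45 (log2 fold change 2.34 against MKN45, edgeR adjusted p = 0.0374, and 3.20 against CEAR, edgeR adjusted p = 0.0228). HCP5, an RNA of the MHC region, fell in CEAR, at 1.96 and 2.22 CPM in HER2R, 0.650 and 0.876 CPM in CEAR and 3.54 and 10.5 CPM in MKN45 (log2 fold change -3.17, edgeR adjusted p = 0.0354). The snoRNA hosts GAS5 and SNHG16 rose in HER2R against CEAR by 0.83 (edgeR adjusted p = 0.0438) and 0.88 (edgeR adjusted p = 0.0376) on the log2 scale. The calls of UCA1 against MKN45 and of MIR210HG in CEAR were lost with any 1 library left out (edgeR adjusted p up to 0.164 and 0.159), and that of MIR210HG in HER2R without any HER2R or MKN45 library (up to 0.146). HCP5 passed only without MKN45 replicate 1 (otherwise up to 0.137), and the calls of UCA1, GAS5 and SNHG16 between the derivatives were lost without any HER2R or CEAR library (up to 0.127, 0.184 and 0.161).

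Of the LINC rows under the level rule 37 were tested, and 1 was called: LINC00899, named after its values were seen, rose in CEAR against MKN45 (log2 fold change 3.11, SE 0.597, edgeR adjusted p = 0.0328). It had 10 and 7 counts in HER2R, 40 and 28 in CEAR and 6 and 3 in MKN45, and the call was lost with any 1 library left out (edgeR adjusted p 0.0795 to 0.142). In CEAR against MKN45 6.19% of all tested genes were called.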
